A study of Mus musculus with 24 samples.

Results

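The constitutive proteasome genes encode the protease complex, present in most cells, that degrades proteins tagged with ubiquitin. They were measured in mouse blood 24 h after x-ray exposure. Members were chosen by name alone: the probes, other than control spots, whose gene name begins with Psm, a letter from a to g and a digit. Psmb8, Psmb9 and Psmb10, the inducible subunits of the immunoproteasome, were left out and serve here as a comparison. The rule gave 46 genes on 58 probes, of 29711 gene names and 39429 probes on the array. RNA from the blood of male C57BL/6J mice was hybridised to 24 one-colour arrays in 4 groups. There were 5 arrays of Gadd45aWT mice at 0 Gy, 5 of Gadd45aWT mice at 7 Gy, 5 of Gadd45aKO mice at 0 Gy and 9 of Gadd45aKO mice at 7 Gy. The series studies how Gadd45a, a gene known to respond to DNA damage, alters the blood response to radiation.

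Levels are log2 intensities scaled so that 0 is the 75th percentile of the signal on the same array, computed from those probes that exceeded background clearly on each of the 24 arrays. Levels of different probes cannot be set against each other. KO-labelled replicates 1 and 4 at 0 Gy differed by about as little as repeat spots within an array and were counted as 1 sample, which gave n = 4 in that group. Since the labels do not tie arrays to animals, p-values here reflect only the spread between these samples, which may be technical. The Gadd45a probe itself stood at 0.65 ± 0.23 (SD, n = 5) in WT and 0.51 ± 0.16 (SD, n = 4) under the KO label at 0 Gy, a difference of −0.15 ± 0.21 (SE; limma adjusted p = 0.855). At 7 Gy it was 1.203 ± 0.17 higher under the KO label (SE, limma adjusted p = 4.79e-05). From 0 to 7 Gy it fell under both labels, by 1.86 in WT (limma adjusted p = 3.0e-07) and by 0.51 under the KO label (limma adjusted p = 0.0305). Whether that probe lies in the deleted part of the gene is not given in the sources used here, and the group is therefore called KO-labelled. Between 25.7% and 50.9% of probes on an array were well above background, and repeat spots varied by over 10% on 4 arrays: replicate 1 of WT at 0 Gy, replicate 2 of the KO-labelled group at 0 Gy, and 3 and 5 of the KO-labelled group at 7 Gy. In WT at 7 Gy, replicates 3, 4 and 5 stood apart, with a mean level of 10 hepatocyte markers of 1.86, 1.86 and 1.76 against −1.79 and −1.86 in replicates 1 and 2. That mean was −5.88 to −5.33 in WT at 0 Gy, and under the KO label −6.13 to −2.97 at 0 Gy and −3.67 to −1.49 at 7 Gy. Among the KO-labelled controls, replicates 2 and 5 were highest, at −3.50 and −2.97. Leaving out WT 7 Gy replicates 3, 4 and 5 therefore does not level this signal between the groups. Results that rest on those WT arrays are given with and without them, and the differences between responses also without the 4 variable arrays.

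The proteasome is a barrel, the 20S core, capped by 19S regulatory particles. The core stacks rings of alpha subunits, which form the gate, on rings of beta subunits, 3 of which (Psmb5, Psmb6 and Psmb7) cut proteins. The 19S cap has a base, whose ATPases unfold the substrate and thread it into the core, and a lid, whose Psmd14 subunit removes the ubiquitin chain. Other activators, PA28 and PA200, can dock in place of the cap, and chaperones assemble the parts and leave. In blood, mature red cells have lost most organelles, and reticulocytes keep a ubiquitin and proteasome system with which they clear proteins as they mature. Lymphocytes use the proteasome to make the peptides shown on MHC class I.

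Upstream sequence is shown for the 4 genes on which the comparisons below turn: Psme3 and Psmf1, with the largest falls in WT, and Psmd4 and Psmd5, whose responses differed between the genotype labels in opposite directions. The sequences are the 250 bases before the transcript start in RefSeq (assembly GRCm38.p6), printed 5′ to 3′ on the gene's strand. They lie at chr11:101315963-101316212 on the plus strand for Psme3, and on the minus strand at chr2:151741311-151741560 for Psmf1, chr3:95042615-95042864 for Psmd4 and chr2:34870963-34871212 for Psmd5. Capitals mark matches, on either strand, to any of 6 motifs searched.
Psme3: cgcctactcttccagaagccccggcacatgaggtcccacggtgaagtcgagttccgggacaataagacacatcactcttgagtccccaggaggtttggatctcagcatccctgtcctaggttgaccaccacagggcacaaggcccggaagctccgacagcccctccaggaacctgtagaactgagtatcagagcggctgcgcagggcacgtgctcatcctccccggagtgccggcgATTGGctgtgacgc
Psmf1: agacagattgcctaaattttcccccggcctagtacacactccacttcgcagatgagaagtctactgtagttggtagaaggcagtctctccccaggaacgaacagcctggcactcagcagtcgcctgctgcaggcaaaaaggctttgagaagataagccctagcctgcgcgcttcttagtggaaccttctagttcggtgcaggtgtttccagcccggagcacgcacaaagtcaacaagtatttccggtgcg
Psmd4: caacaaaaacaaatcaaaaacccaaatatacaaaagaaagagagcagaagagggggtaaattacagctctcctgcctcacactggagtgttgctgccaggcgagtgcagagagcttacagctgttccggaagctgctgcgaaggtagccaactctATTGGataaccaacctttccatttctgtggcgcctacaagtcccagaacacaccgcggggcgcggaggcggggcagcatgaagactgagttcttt
Psmd5: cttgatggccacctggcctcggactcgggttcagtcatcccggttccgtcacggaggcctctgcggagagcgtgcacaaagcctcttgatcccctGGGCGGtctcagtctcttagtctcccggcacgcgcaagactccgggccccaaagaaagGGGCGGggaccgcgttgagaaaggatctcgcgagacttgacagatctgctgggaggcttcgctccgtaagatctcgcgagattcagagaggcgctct

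The 6 motifs were CCAAT, the box bound by NF-Y; GGGCGG, the GC box; TGACNNNGC, the core of the element bound by the Nrf family; CCGGAAGT, the ETS site; ACTACAA, part of the site of ZNF143; and TATAAA. Psme3 held CCAAT on the reverse strand 14 to 10 bases before its start, and Psmd4 held it on the reverse strand 95 to 91 bases before its start. Psmd5 held GGGCGG at 155 to 150 and at 97 to 92 bases before its start, and Psmf1 matched none of the 6. Of the 46 members, 38 had an entry among the promoter sequences used. Only the 250 bases before the start were searched, for members and for all symbols. GGGCGG was in 20 of these 38 (52.6%) against 35.4% of all 27025 symbols with an entry, and CCGGAAGT in 5 (13.2%) against 3.23%. CCAAT was in 14 (36.8% against 37.5%), TGACNNNGC in 5 (13.2% against 11.5%), ACTACAA in 2 (5.26% against 3.27%) and TATAAA in 3 (7.89% against 14.3%). These are counts of letters, and the arrays did not measure binding at any of them.

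Of the 46 members, 43 were well above background on at least 5 arrays and were tested, and 36 of them were so on all 24 arrays. The 3 that were not tested have roles outside most blood cells. Psma8, an alpha subunit of the testis proteasome, was well above background on 0 arrays, Psmb11, the thymus-specific beta subunit, on 2, and Psmc3ip, a meiotic recombination factor that matched the rule by name only, on 3. No member probe was saturated.

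The effect of 7 Gy in WT blood was asked first. In WT, 4 of the 43 members tested fell and 0 rose: the activator Psme3, the inhibitor Psmf1, the ubiquitin receptor Psmd4 and the alpha subunit Psma5. That is 9.30% of the members, where 23.4% of all 15787 genes tested were called (limma, Benjamini-Hochberg adjusted p under 0.05, two-sided), 10.1% higher and 13.3% lower. The members' median change was −0.07 on the log2 scale, beside −0.05 over all genes tested, and 27 of the 43 estimates were negative. In 7 members the WT arrays at 7 Gy and 0 Gy did not overlap, against 28.6% of all genes. Psme3, Psmf1, Psmd4, Psma5, the ATPase Psmc6 and the lid subunit Psmd6 lay lower (16.5% of all genes), and the ATPase Psmc1 higher (12%). The largest estimated changes in WT were those of Psme3 and Psmf1.

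**Figure D1:**
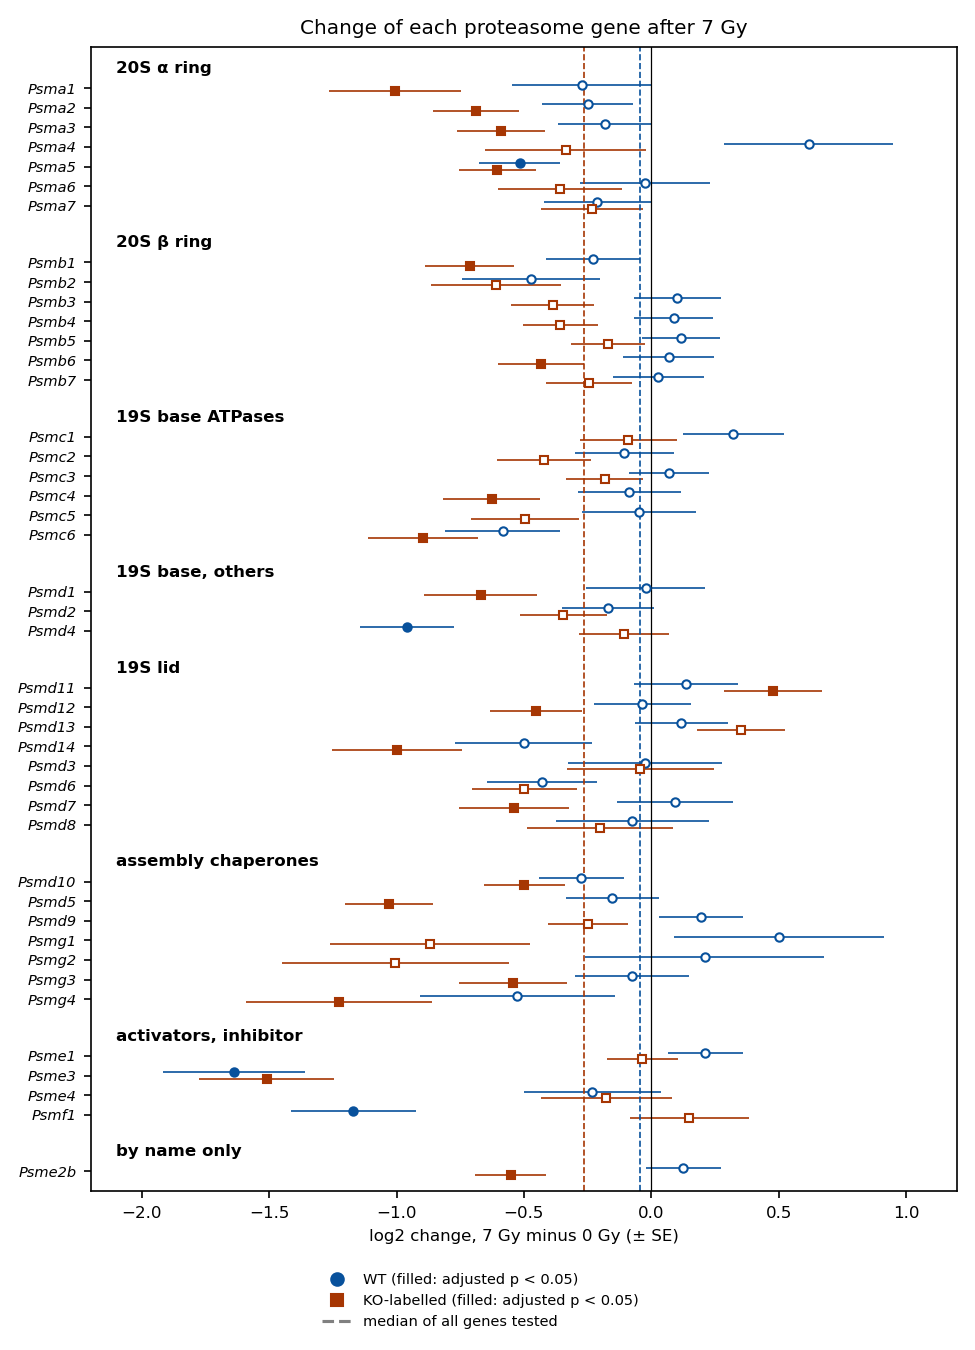
Log2 change after 7 Gy (x axis) of each of the 43 tested proteasome genes, grouped by role, in WT (n = 5 against 5) and KO-labelled blood (n = 9 against 4). Bars are standard errors and filled points are changes called by limma. The estimates for WT gather near 0 apart from Psme3, Psmf1 and Psmd4, and 40 of the 43 for KO-labelled blood lie below 0, where scaling over all probes leaves 14 above 0.

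The same comparison under the KO label gave many more calls, in the proteasome as in all genes. Of the 43 members, 18 fell and 1 rose, which is 44.2%, beside 47.0% of all genes tested (12.2% higher, 34.8% lower). On this scale the members' share is thus near that of all genes. The median change was −0.45, against −0.26 over all genes, and 40 of the 43 estimates were negative. The groups did not overlap for 5 members (24.7% of all genes): Psma5, Psmd5, Psme2b, Psme3 and Psmg4 were lower on every KO-labelled array at 7 Gy (19.7% of all genes), and 0 were higher (5.0%). The split between rises and falls depends on the scaling of the arrays. With the 75th percentile of all probes, which moves the median of all genes from −0.26 to 0.07, 2 members rose, 6 fell and 14 estimates were positive. On that scale 3060 of all 15787 genes rose and 3492 fell, a higher share called than among the members. The 6 that fell under that scaling too were Psme3, Psmd5, Psmg4, Psma1, Psmd14 and Psmc6. With normexp, however, the estimates of Psmd5, Psmd14 and Psmc6 were 0.072, 0.24 and 0.21, in the opposite direction and without a call. With the median as the scale, 2 members rose and 9 fell, beside 2729 and 4197 of all genes, again a higher share. The members' median lay 0.19 below that of all genes, a gap that a constant per array cannot move. It was −0.07 without KO-labelled 0 Gy replicate 5 and −0.08 with all arrays within 1.5 times repeat spots averaged. With normexp it was −0.45, and in the authors' deposited values (20 members) −0.53. Psme3 and Psma5 fell under both labels, the latter not under the KO label when scaled over all probes (−0.28, limma adjusted p = 0.164).

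The arrays of the KO-labelled 7 Gy group did not move as a block. Set against the WT 0 Gy mean of each gene, the median over the 43 members was −0.33, −0.39, −0.67, −0.34, 0.14, −0.68, 0.07, −0.33 and 0.23 on replicates 1 to 9. Replicates 5, 7 and 9 thus stood above 0 and the other 6 arrays below. The same median ran from 0.05 to 0.43 in the KO-labelled arrays at 0 Gy and from −0.16 to 0.00 in WT at 7 Gy. Replicates 1 to 5 and 6 to 9 of that group were hybridised on different slides. The 18 members that fell had negative changes against 0 Gy in both sets, with medians of −0.68 and −0.55. Leaving out KO-labelled 0 Gy replicate 5, the highest of its group, cut the members called from 19 to 12. Over all genes it moved the rises from 1933 to 1700 and the falls from 5487 to 4822.

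**Figure D2:**
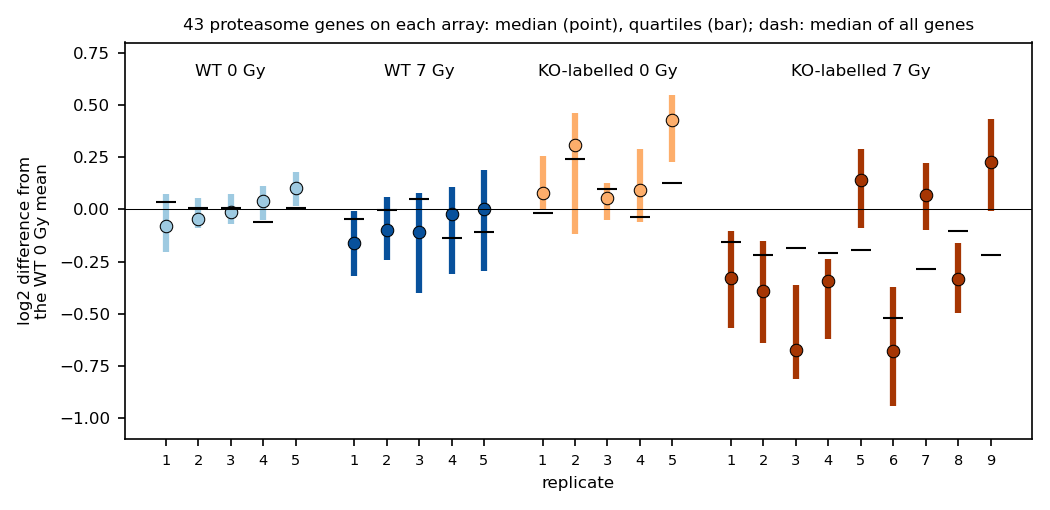
Median (point) and quartiles (bar) over the 43 tested proteasome genes on each of the 24 arrays, as log2 difference from the WT 0 Gy mean of the same gene (y axis), with the median over all genes as a dash. WT arrays at 7 Gy stay between −0.16 and 0.00, and KO-labelled arrays at 7 Gy spread from −0.68 to 0.23.

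Transcripts of marker genes of blood cells also changed; over all genes, 10.1% rose and 13.3% fell in WT, and 12.2% and 34.8% under the KO label. All 10 B cell markers fell under both labels, with median changes of −3.76 in WT and −4.12 in KO-labelled blood. Of 10 NK cell markers, 3 rose and 0 fell in WT, and 1 rose and 6 fell under the KO label. Of 10 neutrophil markers, 1 rose and 1 fell in WT, and 0 rose and 6 fell under the KO label. Of 9 monocyte markers, 2 rose and 3 fell in WT, and 4 rose and 2 fell under the KO label (median 0.44). Of 10 T cell markers, 3 fell in WT and 6 under the KO label, and of 10 platelet markers 7 and 9 rose. Of 10 hepatocyte markers, 9 rose in WT and 6 under the KO label. The part of these cells in the proteasome changes was not tested. In bulk blood, fewer cells of a type and less RNA per cell cannot be told apart.

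The regulators that dock on the core or restrain it held the largest changes. Psme3 encodes PA28γ, a nuclear activator that opens the core to proteins without a ubiquitin tag. Its probe lies at chr11:101184289-101184348 (mm9, plus strand); which exon or untranslated part it covers is not given in the files. In WT at 0 Gy the 5 arrays read −0.73, −1.34, −1.26, −0.99 and −1.45 (mean −1.16 ± 0.29, SD). At 7 Gy they read −2.70, −2.74, −2.85, −2.75 and −2.93 (mean −2.79 ± 0.09, SD). All 5 irradiated WT arrays were thus more than 1 log2 unit below the lowest control. Under the KO label the 4 samples at 0 Gy ran from −1.28 through a median of −1.01 to 0.05, and the 9 arrays at 7 Gy from −3.31 through a median of −2.07 to −1.91. Again the groups did not overlap. Replicates 6 and 9 were the lowest at 7 Gy, and the highest control, replicate 2, was an array with variable repeat spots. Psme3 fell by 1.64 ± 0.28 (log2, SE; 3.11-fold, limma adjusted p = 0.00013) in WT. It fell by 1.51 ± 0.27 (2.85-fold, limma adjusted p = 7.83e-05) in KO-labelled blood. The difference between the responses was 0.13 (limma adjusted p = 0.847). Within single slides the fall ran from −1.97 to −1.40 in WT and from −2.06 to −0.68 under the KO label. Without the 3 WT arrays high in hepatocyte markers it was −1.56 (limma adjusted p = 0.0136). With the normexp background correction neither fall passed the test, at −1.001 (limma adjusted p = 0.0957) in WT and −0.94 (limma adjusted p = 0.0667) under the KO label.

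Psmf1 encodes PI31, known as an inhibitor of the 20S core in vitro. Its probe lies at chr2:151555353-151555412 (mm9, minus strand). The WT arrays read −0.06, −0.63, −0.63, −0.40 and −0.37 at 0 Gy and −1.34, −1.29, −1.86, −1.81 and −1.63 at 7 Gy. Every irradiated WT array was below every WT control. Under the KO label the 4 samples at 0 Gy ran from −0.93 to −0.58 (mean −0.80 ± 0.16, SD), and the 9 arrays at 7 Gy from −1.74 through a median of −0.47 to −0.21. These groups overlapped: 6 of the 9 irradiated arrays were above every control sample, replicate 7 lay among the controls, and replicates 6 and 9, at −1.31 and −1.74, were below them. Psmf1 fell by 1.17 ± 0.24 (log2, SE; 2.25-fold, limma adjusted p = 0.0011) in WT and changed by 0.15 ± 0.23 (limma adjusted p = 0.625) under the KO label. The responses differed by 1.32 ± 0.34 (limma adjusted p = 0.0127), the largest difference among members that passed. At 7 Gy Psmf1 was 1.91-fold higher in KO-labelled than in WT blood (0.94 ± 0.22, limma adjusted p = 0.00312). Within slides its WT change ran from −1.41 to −0.66 and its KO-labelled change from 0.25 to 0.67 on slides 1 to 5. Slide 6 held KO-labelled arrays at 7 Gy alone, and their mean differed by −0.17 from the 0 Gy mean of the other slides. Without the 3 hepatocyte-high arrays, the WT change was −0.90 (limma adjusted p = 0.102) and the difference between responses 1.05 (limma adjusted p = 0.126). With normexp that difference was 1.10 (limma adjusted p = 0.423), in a fit where 0 of all genes passed for it. It also did not pass without the 4 arrays with variable repeat spots.

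Of the other activators, Psme1 encodes PA28α, part of the interferon-inducible cytoplasmic PA28 ring. It changed by 0.21 ± 0.15 in WT (limma adjusted p = 0.345) and −0.04 ± 0.14 under the KO label (limma adjusted p = 0.856). Its partner Psme2 was not analysed here. Psme2b, a near-identical copy whose probes may read Psme2 transcripts, is uncertain for that reason. It fell under the KO label (−0.55 ± 0.14, limma adjusted p = 0.0025), where the 4 control samples ran from 1.35 to 1.66 and the 9 irradiated arrays from 0.58 to 1.28, without overlap. Psme4, encoding PA200, was well above background on 19 arrays and changed by −0.23 ± 0.27 (limma adjusted p = 0.626) and −0.18 ± 0.26 (limma adjusted p = 0.601).

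**Figure D3:**
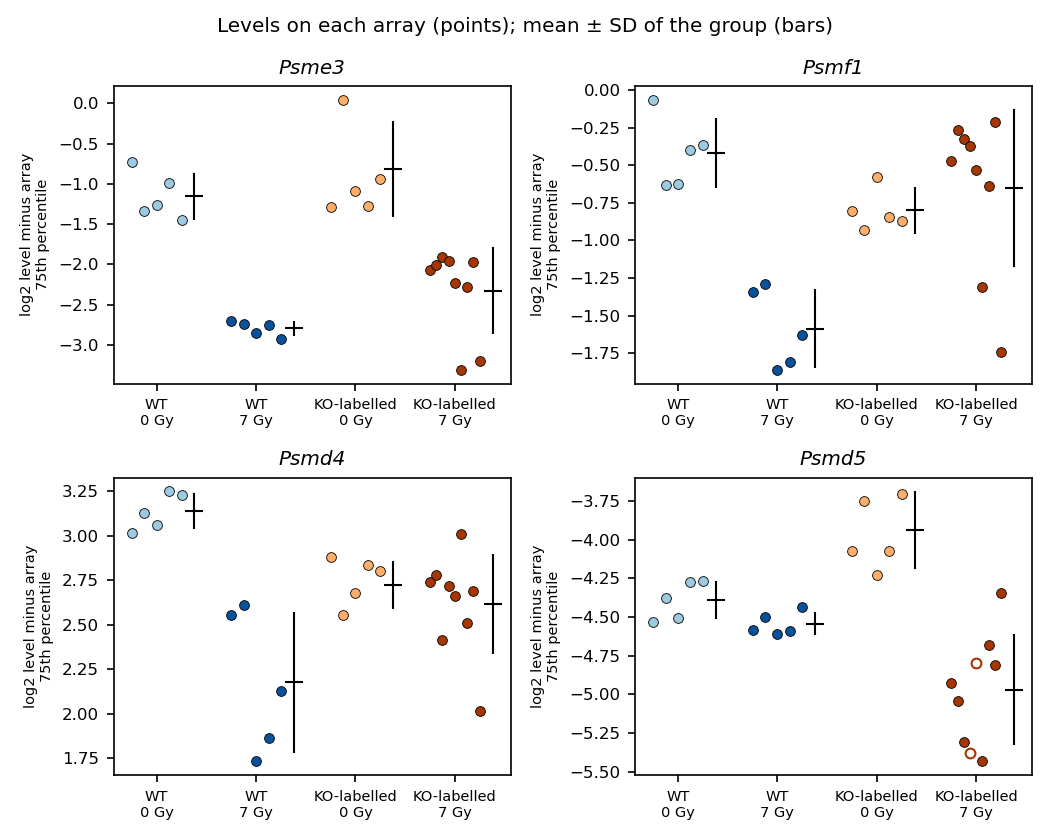
Log2 level relative to the array's 75th percentile (y axis) on each array for the proteasome genes on which the comparisons turn, by group, with group mean and SD. Open points were not well above background. Psme3 is lower after 7 Gy under both labels, Psmf1 and Psmd4 are lower in WT, and Psmd5 is lower on every KO-labelled array at 7 Gy than in the KO-labelled controls.

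In the 19S base, Psmd4 encodes the receptor, also called S5a or Rpn10, that catches ubiquitin chains. Its probe lies at chr3:94836627-94836686 (mm9, minus strand). The WT arrays read 3.02, 3.13, 3.06, 3.25 and 3.23 at 0 Gy and 2.55, 2.61, 1.73, 1.87 and 2.13 at 7 Gy. All 5 irradiated WT arrays were lower than the controls, with the hepatocyte-high replicates 3, 4 and 5 the lowest. Under the KO label the samples at 0 Gy ran from 2.56 to 2.86, and the arrays at 7 Gy from 2.01 through a median of 2.69 to 3.01, on both sides of the controls. Psmd4 fell by 0.96 ± 0.19 (log2, SE; limma adjusted p = 0.000505) in WT and changed by −0.11 ± 0.18 (limma adjusted p = 0.643) under the KO label. The responses differed by 0.85 ± 0.26 (limma adjusted p = 0.0288). Without replicates 3, 4 and 5 of WT at 7 Gy, its WT change was −0.56 (limma adjusted p = 0.119) and the difference between responses 0.45 (limma adjusted p = 0.322). Leaving out WT 0 Gy replicate 4, WT 7 Gy replicate 3 or 4, or KO-labelled 0 Gy replicate 2 also took that difference past 0.05 (limma adjusted p of 0.054 to 0.059). Nor did the Psmd4 difference pass without the 4 arrays with variable repeat spots.

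Red cell markers were set beside Psmf1 and Psmd4. The mean level of 11 erythroid markers, all tested, was 1.07 to 1.42 in WT at 0 Gy. At 7 Gy it was 0.77 and 0.65 on WT replicates 1 and 2 and −0.35, −0.37 and −0.51 on replicates 3, 4 and 5. Under the KO label it was 0.86 to 1.39 at 0 Gy and 0.14 to 1.31 at 7 Gy, and lowest, at 0.18 and 0.14, on replicates 6 and 9, which were also the 2 lowest arrays of that group for Psmf1. Of the 11 markers, 4 fell and 0 rose in WT (median change −0.21), and 4 fell and 4 rose under the KO label (median 0.59). Of all genes, 13.3% fell and 10.1% rose in WT, and 34.8% fell and 12.2% rose under the KO label. The part of red cell precursors in the Psmf1 and Psmd4 results was not tested.

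Of the remaining base subunits, Psmd1, the scaffold of the base, fell under the KO label (−0.67 ± 0.22, limma adjusted p = 0.016), and Psmd2 did not pass in either response. Of the 6 ATPases, 0 passed in WT (median change −0.07) and 2 (33.3%) under the KO label, where 23.4% and 47.0% of all genes were called. Psmc6 and Psmc4 fell under the KO label, by 0.90 ± 0.21 (limma adjusted p = 0.00153) and 0.63 ± 0.19 (limma adjusted p = 0.00965), and the 6 had a median of −0.46. With normexp Psmc6 was at 0.21 (limma adjusted p = 0.734). The 8 lid subunits gave 0 calls in WT and 4 (50%) under the KO label, where 23.4% and 47.0% of all genes were called. Psmd14, the deubiquitinase of the lid, fell by 1.0 ± 0.26 (limma adjusted p = 0.00263), from between −4.71 and −3.60 in the 4 control samples to between −6.32 and −4.58 in the 9 irradiated arrays. Replicates 4 and 5, where it was not well above background, were the lowest, and the groups overlapped. With normexp its change was 0.24 (limma adjusted p = 0.737). Psmd7 and Psmd12 fell by 0.54 and 0.45 (limma adjusted p = 0.044 and 0.0434), close to the threshold. Psmd11, the lid scaffold known as Rpn6, was the 1 member that rose under the KO label (0.48 ± 0.19, limma adjusted p = 0.0455). It passed in 18 of the 39 alternative analyses that gave it a value, and not without the 4 arrays with variable repeat spots.

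In the 20S core, 6 of the 14 subunits tested were called under the KO label (42.9%) and 1 in WT (7.1%). In the 19S cap it was 7 (41.2%) and 1 (5.9%) of the 17. Of all genes, 47.0% and 23.4% were called. The 7 alpha subunits tested had median changes of −0.21 in WT and −0.59 under the KO label. Psma5 read −1.46, −1.74, −1.76, −1.67 and −1.64 in WT at 0 Gy and −2.15, −2.04, −2.30, −2.12 and −2.25 at 7 Gy. It was lower on every irradiated WT array. The KO-labelled samples ran from −1.24 to −1.14 at 0 Gy and from −2.07 through −1.93 to −1.28 at 7 Gy, again without overlap. Psma5 fell by 0.52 ± 0.16 (limma adjusted p = 0.0203) in WT and by 0.60 ± 0.15 (limma adjusted p = 0.00213) under the KO label. The WT call was lost without WT 0 Gy replicate 1 or WT 7 Gy replicate 3 (limma adjusted p of 0.053 and 0.054) and without the 3 hepatocyte-high arrays (−0.44, limma adjusted p = 0.267). Under the KO label Psma1 fell by 1.01 ± 0.26 (2.01-fold, limma adjusted p = 0.00288), from between −1.501 and −0.91 in the controls to between −3.49 and −1.31 on the irradiated arrays, with overlap. Psma2 and Psma3 fell by 0.69 and 0.59. The 7 beta subunits gave 0 calls in WT and 2 (28.6%) under the KO label, Psmb1 (−0.71, limma adjusted p = 0.00189) and Psmb6.

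The 3 subunits that carry the active sites were followed by name. Psmb5, the chymotrypsin-like site, had levels of 0.87 ± 0.21 in WT at 0 Gy and 0.98 ± 0.10 at 7 Gy (SD, n = 5), and of 1.02 ± 0.10 (SD, n = 4) and 0.85 ± 0.25 (SD, n = 9) under the KO label. Its changes were 0.12 ± 0.15 (limma adjusted p = 0.673) and −0.17 ± 0.15 (limma adjusted p = 0.354). Psmb7, the trypsin-like site, changed by 0.03 ± 0.18 (limma adjusted p = 0.947) and −0.25 ± 0.17 (limma adjusted p = 0.245). These groups overlapped, and neither gene passed in any of 38 alternative analyses of either response. Psmb6, the caspase-like site, changed by 0.07 ± 0.18 (limma adjusted p = 0.857) in WT and fell by 0.43 ± 0.17 (limma adjusted p = 0.0398) under the KO label. The fall in Psmb6 passed in 21 of 38 alternatives, and its groups overlapped (−0.31 to 0.16 against −0.95 to 0.04).

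The assembly chaperones had the lowest median change of any role with more than 1 tested gene under the KO label, at −0.87 over 7 genes, with 4 calls (57.1%, beside 47.0% of all genes). In WT their median was −0.07, with 0 calls (23.4% of all genes). Psmd5, which holds the base ATPases during assembly, has its probe at chr2:34708108-34708167 (mm9, minus strand). The WT arrays read −4.53, −4.38, −4.51, −4.27 and −4.27 at 0 Gy and −4.58, −4.50, −4.61, −4.59 and −4.43 at 7 Gy, with overlap. The KO-labelled samples ran from −4.23 to −3.71 at 0 Gy and the arrays from −5.43 through −4.93 to −4.35 at 7 Gy, with none in common. On replicates 4 and 5 at 7 Gy it was not well above background. Psmd5 fell by 1.03 ± 0.17 (log2, SE; 2.04-fold, limma adjusted p = 5.1e-05) under the KO label and changed by −0.15 ± 0.18 (limma adjusted p = 0.636) in WT. The responses differed by −0.88 ± 0.25 (limma adjusted p = 0.0235). That difference missed the threshold with the 75th percentile over all probes (−0.54, limma adjusted p = 0.179), and without KO-labelled 0 Gy replicate 2 or 5 (limma adjusted p of 0.051 and 0.062). Without the 3 hepatocyte-high arrays it was −0.88 (limma adjusted p = 0.1). With normexp the KO-labelled change itself was 0.072 (limma adjusted p = 0.922).

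Psmg4, part of the chaperone pair that starts the alpha ring, fell by 1.23 ± 0.36 (2.34-fold, limma adjusted p = 0.00795) under the KO label, from −3.08 to −2.63 in the controls to −4.92 to −3.45 on the irradiated arrays, without overlap. In WT it read −5.54, −3.02, −2.86, −2.81 and −3.07 at 0 Gy and −3.72, −3.73, −4.28, −4.12 and −4.08 at 7 Gy. WT 0 Gy replicate 1, not well above background for this gene and the array with the most variable repeat spots, stood alone below the irradiated arrays. With it the WT change was −0.53 ± 0.38 (limma adjusted p = 0.373), and without it −1.046 ± 0.24 (limma adjusted p = 0.00293). The same array moved Psma4, from 0.62 with it to 0.24 without, and Psmg1, from 0.50 to −0.04; neither gene passed in WT either way. Psmg3 and Psmd10 fell under the KO label, by 0.54 and 0.50. Without KO-labelled 0 Gy replicate 5 neither passed, nor did Psmd1 (limma adjusted p = 0.0836, 0.0518 and 0.0882).

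At 0 Gy the KO label made 0 calls among the 43 members, where limma called 0.291% of all genes (0.209% higher, 0.0823% lower). The median difference was 0.21, against 0.10 over all genes, 36 estimates were positive, and 3 members had an unadjusted p under 0.05. Groups did not overlap for 7 members (10.9% of all genes): Psma5, Psmc3, Psmc5, Psmd5, Psme1 and Psme2b lay higher (7.29% of all genes) and Psmd4 lower (3.6%) under the KO label. At 7 Gy, 3 members were called against 22.7% of all genes: Psmf1 was higher (4.45% of all genes were), and Psmd9 and Psme2b were lower (18.2%). Scaled over all probes, 4 members were higher and 0 lower at 7 Gy, and Psmd9 and Psme2b stood at −0.25 and −0.18 without a call. Psmd9, a chaperone of the base, was lower by 0.47 ± 0.15 (limma adjusted p = 0.0214), and was the 1 member whose groups did not overlap there (6.14% of all genes, 5.32% lower and 0.823% higher). The 9 KO-labelled arrays ran from −5.44 to −4.66 and the 5 WT arrays from −4.61 to −4.26. The difference between the responses was called for 4 members (9.30%, against 15.7% of all genes): Psmf1 and Psmd4 had the higher response under the KO label (3.08% of all genes), and Psmd5 and Psme2b (−0.68 ± 0.20, limma adjusted p = 0.0288) the lower (12.6%). Scaled over all probes, Psmf1 and Psmd4 kept their calls and Psmd5 and Psme2b did not. Without the 4 arrays with variable repeat spots, 0 members had a higher response and 1 a lower, so Psmf1 and Psmd4 lost theirs. Without the 3 hepatocyte-high arrays none of these differences at 7 Gy passed: Psmf1 was at 0.67, Psmd9 at −0.52 and Psme2b at −0.54 (limma adjusted p = 0.214, 0.154 and 0.0874). The Psmd9 call at 7 Gy was also lost without WT 7 Gy replicate 2 or 4 (limma adjusted p = 0.0637 and 0.0501). The Psme2b call at 7 Gy was lost without WT 7 Gy replicate 1, 2 or 5 (limma adjusted p of 0.0605 to 0.0707), and that on the difference between responses without WT 0 Gy replicate 1 or KO-labelled 0 Gy replicate 5 (limma adjusted p = 0.0518 and 0.072). These comparisons share arrays with each other.

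Immunoproteasome subunits replace the constitutive catalytic ones in cells exposed to interferon and in many immune cells, so the log2 ratio within an array was compared for the 3 pairs in 4 comparisons. The ratio of Psmb9 to Psmb6 was −0.84 ± 0.06 in WT at 0 Gy and −0.54 ± 0.25 at 7 Gy (SD, n = 5). Under the KO label it was −0.74 ± 0.11 (SD, n = 4) at 0 Gy and −1.17 ± 0.23 (SD, n = 9) at 7 Gy. It rose by 0.30 in WT (exact permutation p = 0.0556, adjusted over 12 tests 0.167) and fell by 0.43 under the KO label (exact permutation p = 0.00839, adjusted 0.0336). Without the 3 hepatocyte-high arrays it changed by 0.035 in WT, where replicates 1 and 2 read −0.79 and −0.83 at 7 Gy. At 7 Gy it was lower under the KO label by 0.63 (exact permutation p = 0.0015, adjusted 0.018), where the groups overlapped, with the lowest WT array at −0.83 and the highest KO-labelled array at −0.76. On each of the 5 slides that held both labels the difference at 7 Gy was negative, with a mean of −0.74.

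The ratio of Psmb8 to Psmb5 at 7 Gy was −1.66 ± 0.35 (SD, n = 9) under the KO label and −1.12 ± 0.10 (SD, n = 5) in WT, a difference of −0.53 (exact permutation p = 0.00649, adjusted 0.0336). The ratio of Psmb10 to Psmb7 passed in 0 of the 4 comparisons, with differences from −0.19 to 0.10. Without the 3 hepatocyte-high arrays, which leaves 2 WT arrays at 7 Gy, its difference was 0.73 in WT (exact, adjusted 0.163) and −0.83 at 7 Gy (exact, adjusted 0.109). A ratio within an array shows unequal change, and of the single genes Psmb9 fell by 0.86 (limma adjusted p = 0.00178) and Psmb8 by 0.56 (limma adjusted p = 0.0159) under the KO label, against 0.43 and 0.17 for Psmb6 and Psmb5. Of the 10 NK cell markers, 6 fell under the KO label, but 3 when scaled over all probes, 3 by the median and 1 with normexp, where their median change was 0.25. Their part in the ratios was not tested. The Psmb9 to Psmb6 call under the KO label was lost without any 1 of 4 arrays, KO-labelled 0 Gy replicate 3 or 5 or 7 Gy replicate 2 or 6 (exact permutation p adjusted, 0.0566 to 0.0909). At 7 Gy it was lost without WT replicate 3 or 4 (exact, both adjusted 0.0503). The Psmb8 to Psmb5 call was lost without WT 7 Gy replicate 1, 3 or 4 or KO-labelled 7 Gy replicate 2 (exact, adjusted 0.0503 to 0.0671). Leaving out the 3 hepatocyte-high arrays gave −0.36 for Psmb9 to Psmb6 at 7 Gy and −0.61 for Psmb8 to Psmb5 (exact, both adjusted 0.163). With 2 WT arrays against 9 the exact test has few arrangements, so a missed threshold there decides nothing.

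**Figure D4:**
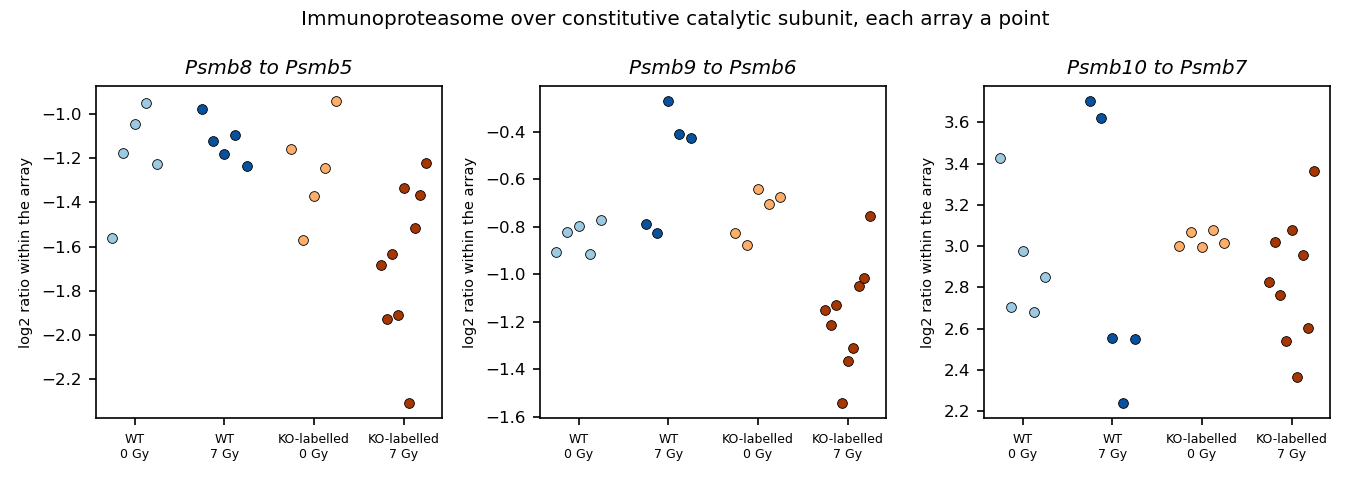
Within-array log2 ratio (y axis) of each immunoproteasome subunit to the constitutive catalytic subunit it replaces, with every array a point, by group. The ratio of Psmb9 to Psmb6 averages −0.54 in WT and −1.17 in KO-labelled blood at 7 Gy, and that of Psmb10 to Psmb7 overlaps between all 4 groups.

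Several probes of a gene did not always tell the same story. Of the 46 members, 35 had 1 probe and 11 had several, and the probe with the highest mean stands for each gene above. For Psma4 the WT changes of its probes were 0.62 and −0.12, and for Psme4 the KO-labelled changes were −0.18 and 0.40. The second probe of Psmg1 fell under the KO label (−0.97, limma adjusted p = 0.0117), where the probe used did not pass (−0.87, limma adjusted p = 0.0748). Both probes of Psmd10 fell (−0.50 and −0.93), and the 3 probes of Psme2b read −0.55, −0.44 and −1.71. The second probe of Psmd9, well above background on 11 arrays, was 0.28 higher under the KO label at 7 Gy (limma adjusted p = 0.637), where the probe used was lower.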

How the data were processed

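Blood RNA from 24 one-colour Agilent arrays in 4 groups was analysed. Per the file headers, the deposited scanner files give each spot's intensity as exported by Agilent Feature Extraction (version 12.0.2 in the submitters' processing notes), background-subtracted within the array and not scaled between arrays, with probe positions on mm9. The authors' deposited values, on a log2 scale, cover the same arrays and served as an alternative. These columns equalled the log2 processed signal plus a constant per array, and their medians ran from 5.75 to 7.18. Some labels name another dye than Cy3; every array was scanned in green alone.

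From the processed signal, flagged outlier spots were dropped, log2 was taken, the 75th percentile of the 7857 probes that passed the background flag on all arrays was subtracted, and spots of a probe were averaged. The 19651 of 39429 probes well above background on at least 5 arrays gave 15787 genes, each by its highest probe. Probes were named by accession (28663), symbol (3300), older symbol (160) or the name in the files (7306). KO-labelled 0 Gy replicates 1 and 4 were averaged. limma 3.58.1 under R 4.3.3 (data.table, release 1.17.8) fitted the 4 groups together, with Benjamini-Hochberg adjustment over all genes and calls under 0.05; errors are standard errors. Log ratios were compared by exact two-sided permutation, whose smallest p is 0.00794 in WT and at 0 Gy, 0.0014 under the KO label and 0.0005 at 7 Gy. On simulated data for the WT comparison, 50 of 15787 genes were changed at each of 4 sizes. Of genes changed by 0.5, 1, 2 and 3 log2 units, 4%, 30%, 82% and 96% were called, so small changes were often missed there. In the real WT comparison 23.4% of all genes were called. The adjusted threshold depends on that share, so the simulated shares do not give the share of real changes missed. Depth on an array is signal over background; the number of arrays limits the precision. Tables and figures used Python 3.11.15, pandas 2.3.3, NumPy 2.4.6 and matplotlib 3.10.9.

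Named genes are the catalytic subunits, activators and inhibitor, members not tested, up to 4 called members a direction with the largest change in each comparison, and up to 4 called genes of each pathway list; members whose groups did not overlap, or that 1 array moved, were added after their values were seen. Members and lists were chosen with earlier results of these data known. Alternatives covered scaling, background correction, the value table, the probe filter, blocks, arrays merged within 1.5 times repeat spots and left-out arrays. Values of some single genes in these lists are not reported here. No samples were unassigned.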

Additional observations from a re-analysis of the deposited data

Results flagged for a closer look

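The difference between the 7 Gy responses of the KO-labelled and WT groups passed the test for 4 members, or 9.30%, against 15.7% of all genes. Without the 3 hepatocyte-high arrays 0 members passed. Scaled over all probes, Psmd5 and Psme2b did not pass, and without the 4 arrays with variable repeat spots Psmf1 and Psmd4 did not. In the main fit the difference was 1.32 for Psmf1 and 0.85 for Psmd4, with the higher response under the KO label. For Psmd5 and Psme2b it was −0.88 and −0.68, with the lower response there. Psmf1 restrains the core, Psmd4 catches ubiquitin chains and Psmd5 helps to build the base.

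Single arrays stood far from the rest of their group for 7 of 84 combinations of group and gene or ratio, where chance gives about 1 in 20. All 7 were on WT 0 Gy replicate 1 or KO-labelled 0 Gy replicate 2, whose repeat spots varied by 26.8% and 15.7%. On WT 0 Gy replicate 1, Psmb5 was highest at 1.24 (nearest array 0.88), Psma8 highest at −5.71 (nearest −8.71) and Psmg4 lowest at −5.54 (nearest −3.07). On KO-labelled 0 Gy replicate 2, Psme4 was lowest at −6.38 (nearest −5.59) and Psmd9 lowest at −5.05 (nearest −4.62). On that array Psma8 was highest at −3.86 (nearest −8.33) and Psmc3ip highest at −4.74 (nearest −7.60). Psma8 was not well above background on any array, nor Psmc3ip on any KO-labelled array at 0 Gy, so these values have no meaning as levels. Both genes are among the 84 combinations counted.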

How the results depend on the processing

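Members called numbered 4 in WT, 19 under the KO label, 4 for the difference between responses, 0 at 0 Gy and 3 at 7 Gy. Of all genes, 23.4%, 47.0%, 15.7%, 0.291% and 22.7% were called. Those shares also moved with the settings below, so a member count alone does not show a change particular to the proteasome. At 0 Gy the count was 0 under each alternative run. With normexp background correction the counts were 1, 1, 0 and 0 (in that order, leaving out 0 Gy). Of all genes, normexp called 375 higher and 371 lower in WT, and 794 and 574 under the KO label. It called 0 of all genes for the difference, and 97 higher and 137 lower at 7 Gy. With normexp Psmc6 stood at 0.21, Psmd10 at 0.31, Psmd12 at 0.028, Psmd14 at 0.24, Psmd5 at 0.072, Psmd7 at 0.23 and Psmg3 at 0.26 under the KO label, the opposite direction; the cause was not tested. With the 75th percentile over all probes the KO count was 8 and that of the difference 2; with the median over probes detected on all arrays 11 and 2; with quantile normalization the difference had 2; with the value table (20 members) 7 and 2. Without the probe filter the difference had 1 and 7 Gy 1. With KO-labelled 0 Gy replicates 1 and 4 kept apart, 7 Gy had 5. Arrays within 1.5 times repeat spots were also averaged, which left 2, 3, 4 and 6 units. These were in WT 0 Gy, WT 7 Gy, KO-labelled 0 Gy and KO-labelled 7 Gy, in that order. The counts were then 0, 11, 0 and 0. Of all genes, 361 rose and 607 fell in WT, and 1436 and 4397 under the KO label. For the difference 0 of all genes passed, and at 7 Gy 124 were higher and 678 lower. With fewer samples, WT Psme3 was −1.55 (limma adjusted p = 0.0696). Without the 4 arrays with variable repeat spots the difference had 1 member lower and 0 higher, so neither Psmf1 nor Psmd4 passed. Of all genes, 216 were called higher and 1372 lower for that difference. Without the 3 hepatocyte-high arrays WT had 1, the difference 0 and 7 Gy 0. Of all genes, 10.4%, 6.53% and 7.34% were called there. Fitted on the compared groups alone, WT had 8 and 7 Gy 1. With slide as a block the difference had 7 and 7 Gy 8. Of all genes, 1711 were higher and 3453 lower for that difference, and 2020 and 3982 at 7 Gy. With the replicate number as a block the counts were 7, 30, 14 and 14. Of all genes, that block called 2183 higher and 2962 lower in WT, and 3759 and 6254 under the KO label. It called 2157 and 4074 for the difference, and 2386 and 4437 at 7 Gy. For replicates 1 to 5 the number is also the slide. Deviations of same-numbered arrays from their group means correlated from −0.23 to 0.71. Medians over arrays of other numbers ran from −0.32 to 0.18. Slide 3 gave 0.43 to 0.71 and slide 5 gave 0.19 to 0.54, while the other slides also held values below 0.1. As not all were above 0.1, the numbers were not taken to pair the samples. Slides thus left a mark on some arrays, and the main fit has no term for them. Leaving out 1 array at a time gave 3 to 5 in WT, 12 to 26 under the KO label, 2 to 5 for the difference, 0 at 0 Gy and 2 to 8 at 7 Gy; the 8 was without KO-labelled 7 Gy replicate 9, the 12 without KO-labelled 0 Gy replicate 5, and the 26 without KO-labelled 7 Gy replicate 9.

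For the log ratios of Psmb8 to Psmb5 at 7 Gy, Psmb9 to Psmb6 under the KO label and Psmb9 to Psmb6 at 7 Gy, normexp gave −0.41, −0.25 and −0.35, merged arrays −0.48, −0.40 and −0.62, and the set without variable repeat spots −0.58, −0.46 and −0.60, none passing the exact permutation test after adjustment. Without the 3 hepatocyte-high arrays the values at 7 Gy were −0.61 and −0.36. At 7 Gy that set has 2 WT arrays against 9, and the merged arrays 3 WT units against 6. The exact test then has few arrangements, so a missed threshold there decides nothing. Leaving out 1 array at a time gave −0.59 to −0.45, −0.48 to −0.39 and −0.70 to −0.56. It gave 0.23 to 0.37 for Psmb9 to Psmb6 in WT, the highest without WT 7 Gy replicate 2, where that rise passed the exact test. Without all 3 hepatocyte-high arrays that WT change was 0.035.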

Other observations

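Genes that act beside the proteasome subunits were counted in the same fit as the members, in which 10.1% of all genes rose and 13.3% fell in WT, and 12.2% rose and 34.8% fell under the KO label. Of 16 proteasome-associated factors tested, 2 fell and 0 rose in WT, and 9 fell and 0 rose under the KO label, or 12.5% and 56.2% called beside 23.4% and 47.0% of all genes. Ube3c, a ligase on the proteasome, fell by 1.74 in WT and by 1.56 under the KO label. With normexp background correction the estimates of Ube3c had the opposite sign in both responses, as did those of Uchl5, Faf2, Nfya and Zfp143 under the KO label. Usp14 and Uchl5, deubiquitinases on the cap, fell by 1.45 and 1.11 under the KO label. Of 13 genes of ubiquitin and its activation, 1 rose and 5 fell in WT, and 4 rose and 3 fell under the KO label. Ube2r2, a ubiquitin-conjugating enzyme, fell by 1.79 (limma adjusted p = 2.54e-05) in WT and stood at −0.38 under the KO label, a difference between responses of 1.41 (limma adjusted p = 0.0141). Ube2k, another conjugating enzyme, rose by 1.38 under the KO label.

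Of 8 genes of p97, the segregase that extracts proteins, and its cofactors, 0 passed in WT, and 1 rose and 5 fell under the KO label, with Vcp at −1.37 and Faf2 at −1.20. Of 12 regulators of proteasome gene transcription, 0 passed in WT, and Mafg rose (0.54) and 4 fell under the KO label, among them Nfya (−1.68) and Zfp143 (−1.41). Of 9 genes of the immunoproteasome and class I peptide loading, 3 rose in WT (B2m, Tap1 and Tapbp), and B2m rose and 3 fell under the KO label. The shares called under the KO label were 75% for p97, 41.7% for regulators and 44.4% for class I, beside 47.0% of all genes. In WT the class I share was 33.3%, beside 23.4% of all genes. Tap2, a peptide transporter, was lower by 1.07 under the KO label at 7 Gy. With the 75th percentile over all probes the rises and falls under the KO label became 1 and 3 for associated factors, 5 and 0 for ubiquitin, 2 and 3 for p97, 1 and 2 for regulators, and 2 and 2 for class I.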
